A study of Mus musculus with 12 samples.

Results

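Among the entries of mouse microRNA arrays, 6 that the literature often treats with caution were followed over 12 arrays of irradiated and untreated LLC1 cells. They are mmu-miR-690, mmu-miR-709, mmu-miR-720_v18.0, mmu-miR-1224-5p, mmu-miR-188-5p and mmu-miR-494-3p, matched by their exact names among the 576 entries of the array. They were selected on measured values, since each belongs to a list of entries traced to tRNA, rRNA or repeats, or rich in G and C, and was well above background on every array of 1 group or more, as were 118 entries in all. Among the members, the closest to that limit was miR-188-5p, detected on 7 arrays. Listed entries of this kind that also met it but are not members were miR-714, miR-574-5p, miR-712-5p (detected on 5 arrays) and miR-689_v15.0. Short of it were miR-671-5p and miR-721, each detected on 2 arrays of different groups. The members were chosen with earlier values of these arrays known, so their changes are given as a description.

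LLC1 is an established line of mouse Lewis lung carcinoma, grown here in culture. It was left untreated (control) or irradiated with 2 Gy once, 10 Gy once, or 2 Gy on 5 occasions (5x2 Gy), and RNA was isolated 4 h later, with 3 arrays in each of the 4 groups. In every group 100 ng of total RNA from a small-RNA kit was labelled with Cy3 and hybridised to 1 array per sample. Biological replicates is the labels' term for the 3 arrays in a group, with no word on what was separate, so the p-values measure the spread between these samples, and all results are for 1 line at 1 time. Of the marker miRNAs of other cell types, 0 of 5 epithelial entries (the miR-200 family) were detected on any array, 4 of 5 mesenchymal and 2 of 5 blood entries were tested, 1 of 3 muscle entries (miR-206-3p) was detected on 2 arrays, both of 5x2 Gy, and 0 of 3 nerve and liver entries were detected. After 5x2 Gy the mesenchymal markers miR-199a-5p and miR-214-3p were higher by 0.33 and 0.46 on the log2 scale (limma adjusted p = 0.010 and 0.041). The other tested mesenchymal markers, miR-199a-3p and miR-143-3p, were at 0.35 and 0.17 (limma adjusted p = 0.11 and 0.15). The 5x2 Gy and control arrays lay on different slides, so slide and irradiation cannot be told apart here. The part of these changes in the members' values was not tested.

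A microRNA is cut from a hairpin precursor and guides Argonaute proteins to messenger RNAs through its seed, bases 2 to 8 from the 5′ end. An array probe reports any labelled RNA that pairs with it, so fragments of abundant RNAs with the same letters add to its signal. The sequence first named miR-720 is a fragment of a threonine tRNA, and the array keeps it under the name of an older database release. MiR-1224 is a mirtron, an intron of Vwa5b2 that becomes a hairpin by splicing rather than by Drosha. MiR-188 lies in an intron cluster of the chloride transporter gene Clcn5, and miR-494 in the large imprinted Dlk1-Dio3 cluster. MiR-709 is a mouse microRNA described in the nucleus, and miR-690 has been described in vesicles of macrophages.

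The mature sequences of 4 of the 6 members were matched in RefSeq (GRCm38.p6) and are shown because their base content is part of why the entries were grouped. Capitals mark the seed.
mmu-miR-690: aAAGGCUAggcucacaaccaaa
mmu-miR-1224-5p: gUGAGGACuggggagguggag
mmu-miR-188-5p: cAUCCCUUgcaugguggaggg
mmu-miR-494-3p: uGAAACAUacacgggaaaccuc
These 4 seeds all differ. Only miR-188-5p shares its seed with another of the 1679 mature mouse sequences of the table, miR-7061-3p. MiR-1224-5p is 66.7% G and C and miR-188-5p 61.9%, against a median of 52.2% over the table. At 45.5% each, miR-690 and miR-494-3p lie below that median, and 75.2% of the mature sequences hold as much G and C or more, so these entries are not GC-rich by their own letters. The longest run that any of these pairs has in common is the 7 bases GGUGGAG, at base 15 of miR-1224-5p and base 13 of miR-188-5p, searched on the mature strand alone. It occurs in 10 mature sequences, 0.596% of the table, and among the 101 tested entries with a sequence in these members only.

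In that assembly miR-690 lies at chr16:28599940-28599961 on the minus strand, within Fgf12, and miR-1224-5p at chr16:20604452-20604472 on the plus strand, within Vwa5b2. MiR-188-5p lies at chrX:7248031-7248051 on the minus strand, within Clcn5, with 3 other microRNA genes (Mir501, Mir362 and Mir532) starting within 10000 bases. MiR-494-3p lies at chr12:109715367-109715388 on the plus strand, with 20 other microRNA genes starting within 10000 bases. The array files give no coordinates.

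Brightness differed between the arrays before any comparison. The 75th percentile of probe signal ran from 110.5 on control replicate 2 to 1102 on 5x2 Gy replicate 2, and the entries detected from 48 to 137, the ends of both ranges being the same 2 arrays. Means of brightness were 387 ± 299 (SD, n = 3) in control, 512 ± 333 (SD, n = 3) after 2 Gy, 521 ± 303 (SD, n = 3) after 10 Gy and 1064 ± 52.9 (SD, n = 3) after 5x2 Gy. Slide 1 carried 8 arrays (all control, all 2 Gy and 10 Gy replicates 1 and 2) and slide 2 the other 4. A level below is a log2 value relative to that percentile of the array's probes detected everywhere, with a floor at -4.06. On control replicate 2 the lowest detected level was -1.91, the highest such limit of any array. There both probes of miR-690, all 4 of miR-188-5p, 2 of 4 of miR-1224-5p and 1 of 2 of miR-709 and of miR-494-3p were dark (not detected), while both probes of miR-720_v18.0 were detected. The measured levels of the other 5 entries on that array are therefore uncertain. They may be too low, or too high where the floor raised a dark probe, as it did all 4 of miR-188-5p.

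The 6 entries made up a large share of all signal, and most of it was miR-720_v18.0. In control replicates 1, 2 and 3 they held 32.7%, 19.9% and 22.3% of the summed signal of each array. The 9 irradiated arrays held 13.8% to 20.4%. The group means were 25.0% ± 6.8 (SD, n = 3) in control, 17.8% ± 2.4 (SD, n = 3) after 2 Gy, 15.6% ± 1.6 (SD, n = 3) after 10 Gy and 16.6% ± 1.7 (SD, n = 3) after 5x2 Gy. MiR-720_v18.0 alone held 11.7% to 21.4%. Without it, the other 5 entries held 11.4%, 2.32% and 6.99% in the 3 control arrays, so control replicate 2 lay within the irradiated range of 2.05% to 5.16% and the other 2 controls above it.

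MiR-720_v18.0, the tRNA fragment, was the steadiest across arrays of the 6. Its levels were 3.38, 3.02 and 2.61 in control, 2.50, 2.62 and 2.61 after 2 Gy, 2.48, 2.29 and 2.38 after 10 Gy, and 2.68, 2.41 and 2.45 after 5x2 Gy. The 10 Gy arrays all lay below all controls, while the 2 Gy and 5x2 Gy arrays overlapped with control replicate 3. The change was -0.42 (SE 0.17) after 2 Gy, -0.62 (SE 0.17) after 10 Gy and -0.49 (SE 0.17) after 5x2 Gy. None passed (limma adjusted p = 0.50, 0.14 and 0.11).

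MiR-709, the nuclear microRNA, was detected on all 12 arrays. Its levels were -1.16, -2.13 and -1.67 in control, -2.24, -2.17 and -2.10 after 2 Gy, -1.79, -2.22 and -1.98 after 10 Gy, and -2.13, -2.29 and -2.18 after 5x2 Gy. Control replicates 1 and 3 lay above every irradiated array, and control replicate 2, with 1 dark probe, was measured among them. The changes of miR-709 were -0.51, -0.34 and -0.54 (SE 0.21 each), with limma adjusted p = 0.50, 0.46 and 0.14. Its 2 probes correlated less across the arrays than those of the other members (r = 0.54 on the log2 scale, against 0.93 to 1.00), and 1 of them was detected on 8 arrays only.

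MiR-690 had the widest measured spread between replicates. It was at -1.13, -3.98 and -1.56 in control, -3.80, -1.93 and -3.47 after 2 Gy, -3.43, -3.84 and -2.63 after 10 Gy, and -2.16, -2.38 and -2.27 after 5x2 Gy. Control replicate 1 held the highest level. It was not detected on control replicate 2, 2 Gy replicate 1 or 10 Gy replicate 2, where it can be said only to lie under the lowest detected level of the array, -1.91, -3.35 and -3.00. The changes were -0.84, -1.08 and -0.05 (SE 0.77 each), with limma adjusted p = 0.78, 0.54 and 1.

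MiR-1224-5p, the mirtron product, was detected on all arrays. Its levels were 0.97, -1.70 and -0.17 in control, -1.79, -0.83 and -1.66 after 2 Gy, -1.63, -1.96 and -1.27 after 10 Gy, and -1.35, -1.38 and -1.33 after 5x2 Gy. The irradiated arrays all lay below control replicates 1 and 3, and only 2 of the 9 lay below the measured level of control replicate 2. The 5x2 Gy arrays lay close together (SD 0.03), while the controls had an SD of 1.34. The changes were -1.13, -1.32 and -1.06 (SE 0.59 each), with limma adjusted p = 0.55, 0.24 and 0.27.

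MiR-494-3p, from the imprinted cluster, was also detected on all 12 arrays. It was at 0.77, -1.65 and 0.02 in control, -2.18, -0.21 and -1.63 after 2 Gy, -1.81, -2.39 and -1.49 after 10 Gy, and -1.34, -1.28 and -1.29 after 5x2 Gy. Again control replicates 1 and 3 stood above all 9 irradiated arrays, and 3 of the 9 lay below the measured level of control replicate 2. The changes were -1.06, -1.61 and -1.02 (SE 0.66 each), with limma adjusted p = 0.64, 0.24 and 0.36.

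MiR-188-5p was close to background. Its levels were -2.46, -4.06 and -3.67 in control, and it sat at the floor on all 9 irradiated arrays. The floor hides detected signal here: over its 4 probes the mean signal was 34.6, 44.2 and 40.8 on the 5x2 Gy arrays, all detected, against 63.1 and 55.3 on control replicates 1 and 3 and 1.05 on control replicate 2, where it was not detected. Without a floor the detected levels were -2.46 and -3.67 on those 2 controls, -4.15 on 2 Gy replicate 2, -4.32 on 10 Gy replicate 3, and -4.98, -4.64 and -4.62 on the 5x2 Gy arrays. The change of -0.67 (SE 0.33) against control is therefore the same in all 3 comparisons by construction, and did not pass (limma adjusted p = 0.52, 0.29 and 0.22).

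**Figure D1:**
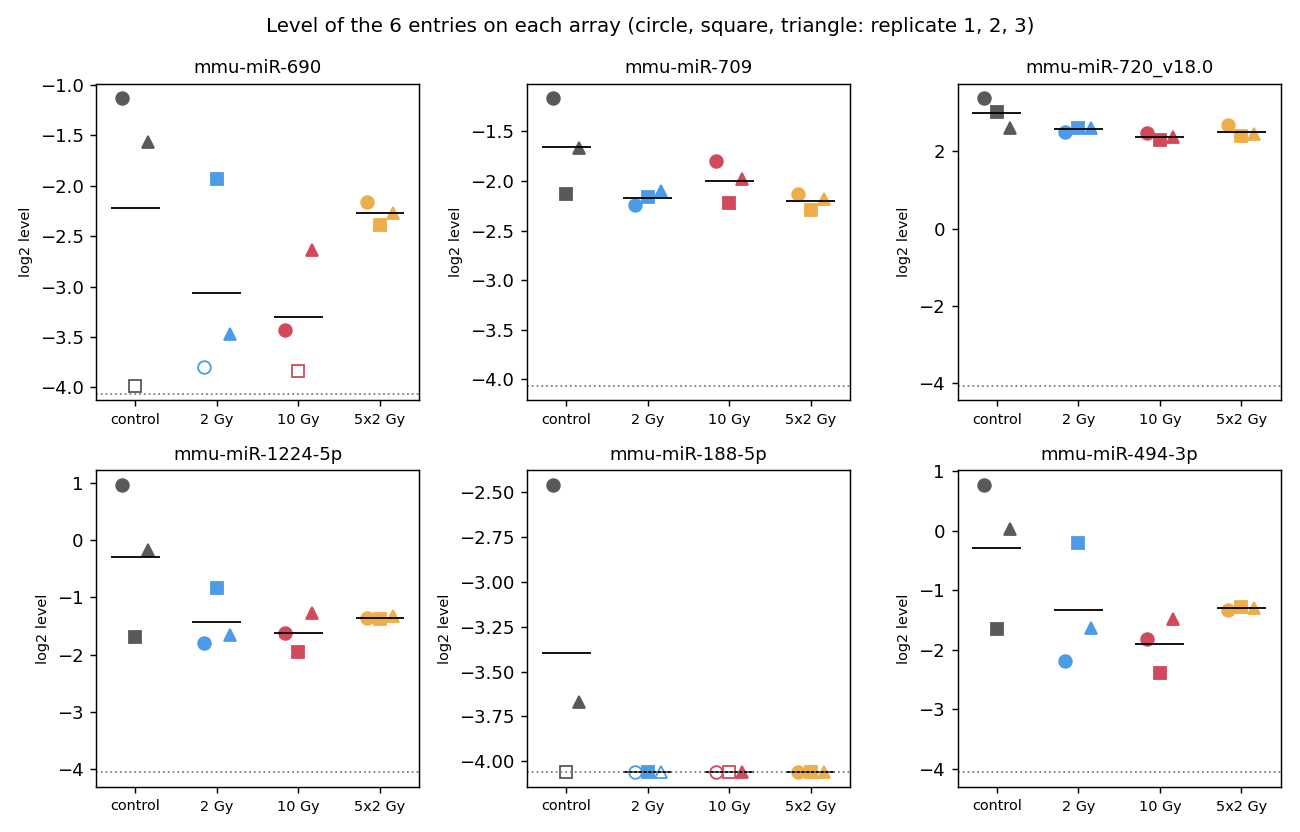
The log2 level (vertical axis, its range differing between panels) of each of the 6 entries on every array is plotted by group. Circles, squares and triangles are replicates 1, 2 and 3, filled where the entry was detected, bars are group means and the dotted line is the floor at -4.06. Control replicate 1 is the highest array in all 6 panels, while the measured levels of control replicate 2, where the other 5 entries have dark probes, lie among or near the irradiated arrays for all but miR-720_v18.0.

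None of the 6 entries passed in any comparison, although all 6 had a negative change against control in each. That direction depends on the scale: without scaling, miR-720_v18.0 (2 Gy and 10 Gy) and miR-709 (10 Gy) turned to 0.17, 0.028 and 0.042, where the median of all tested entries moved to 0.16 (2 Gy) and 0.15 (10 Gy). MiR-709 after 10 Gy was at 0.17 with the authors' values, where that median was 0.56, and miR-690 at 0.081 (2 Gy) and 0.73 (5x2 Gy) with total gene signal, where it was 0.089 and 0.35. With all probes in the scale, without scaling or with the authors' values the members' median after 5x2 Gy was 0.74, 0.84 and 0.78, where that of all tested entries was 1.42, 1.41 and 1.68. After 2 Gy, limma called 0 of 118 entries (0% of those tested, 11 at an unadjusted p under 0.05), and the members' median change was -0.75 against 0 over all tested. After 10 Gy it called 1 entry (0.847%), and the members' median was -0.87 against 0. After 5x2 Gy it called 15 entries (12.7%), all higher than control and none a member, and the members' median was -0.61 against 0.0004. Of the members, 2 had an unadjusted p under 0.05 in each of these 3 comparisons. They were miR-709 and miR-720_v18.0 after 2 Gy and 5x2 Gy, and miR-494-3p and miR-720_v18.0 after 10 Gy. Over all 118 tested entries, 11, 24 and 36 were under that value after 2 Gy, 10 Gy and 5x2 Gy. Negative changes were the case for 39.8%, 40.7% and 33.1% of all tested entries, of which 19 were at the floor on every array and could not change. The 3 comparisons share the control arrays, so they are not independent.

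After 10 Gy 1 member, miR-720_v18.0, lay wholly below control, against 6.78% of all tested entries. After 2 Gy and 5x2 Gy 0 members did, against 2.54% and 5.08%.

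**Figure D2:**
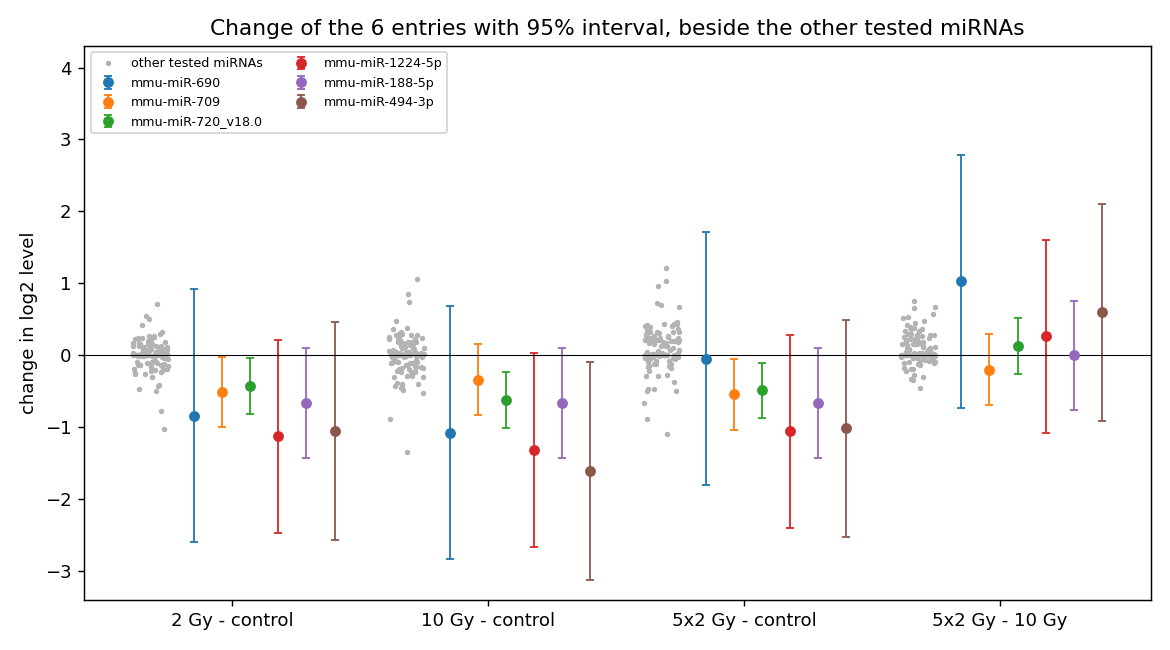
Changes in log2 level (vertical axis) are plotted for the 6 entries with 95% intervals, beside the other tested entries as grey points, in 4 comparisons. The intervals of miR-690 and miR-1224-5p include 0 in all 4, and those of miR-720_v18.0 lie below 0 in the 3 against control before adjustment. Without scaling these changes of miR-720_v18.0 are 0.17, 0.028 and 1.34, where the median of all tested entries is 0.16, 0.15 and 1.41.

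Set against each control array by itself, the same irradiated means gave different values. Against control replicate 1 all 18 differences (6 entries and 3 irradiated groups) were negative, from -2.67 to -0.80. Against control replicate 3 all 18 were negative too, from -1.92 to -0.03. Against the measured levels of control replicate 2 only 6 were negative. The dark probes of that array were also set to its lowest detected level, while those of the irradiated arrays kept their measured levels. The differences of miR-690 were then -1.15, -1.39 and -0.36 for 2 Gy, 10 Gy and 5x2 Gy, and those of miR-1224-5p were -0.32, -0.51 and -0.25, against positive values as measured. The direction against control replicate 2 is thus not settled for these entries, for miR-188-5p, or for miR-709 after 10 Gy. MiR-494-3p was above control replicate 2 after 2 Gy and 5x2 Gy at the measured level (0.30 and 0.34) and by 0.033 and 0.069 at the limit. Only miR-720_v18.0 lay below the measured levels of all 3 control arrays in each group mean, with differences of -0.63 to -0.44 from control replicate 2. Over all 118 entries the share of negative differences after 10 Gy was 37.3%, 39.8% and 38.1% for control replicates 1, 2 and 3. It was 39.8%, 40.7% and 34.7% after 2 Gy and 27.1%, 30.5% and 27.1% after 5x2 Gy. These shares count 19 entries at the floor on every array, which cannot be negative.

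Control replicate 1 was above control replicate 2 by at least 4.42-fold for miR-494-3p, at least 4.22-fold for miR-1224-5p and at least 1.72-fold for miR-690, with dark probes at the lowest detected level, and by 1.29-fold for miR-720_v18.0. For miR-709 and miR-188-5p that limit lies at or above control replicate 1, so no fold is given. Control replicate 2 is also the dimmest array, with 48 entries detected, while control replicate 1 (brightness 346, 75 detected) was close in brightness to 2 Gy replicates 1 and 3 (316 and 324) and 10 Gy replicates 1 and 2 (388 and 307). The part of brightness in the difference between the controls was not tested apart from the values below.

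**Figure D3:**
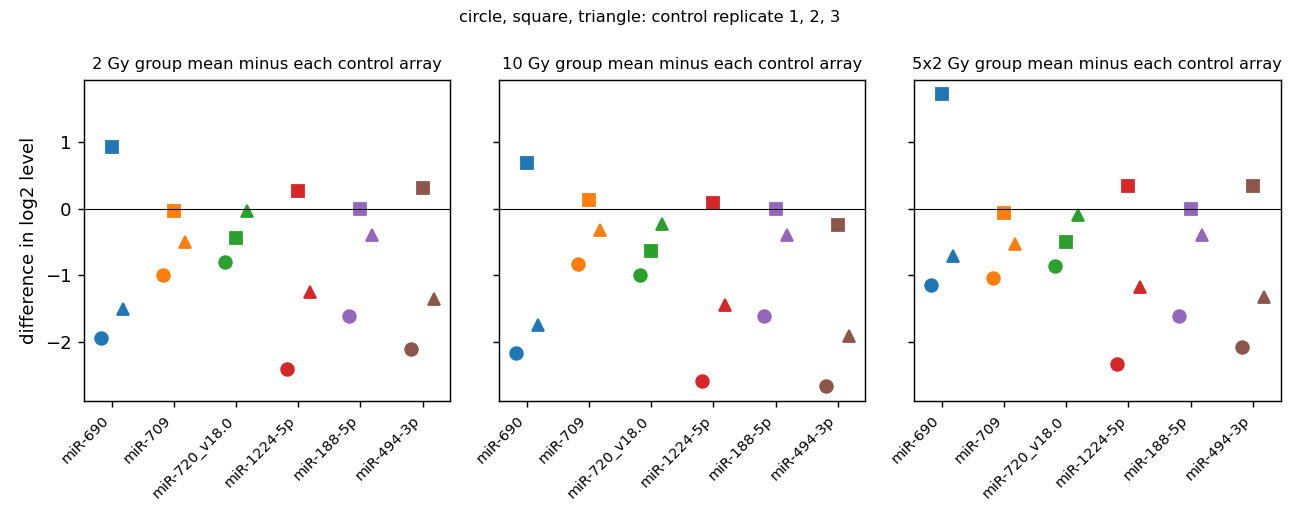
The mean log2 level of each irradiated group minus the level on 1 control array (vertical axis) is plotted for each of the 6 entries. Circles, squares and triangles stand for control replicates 1, 2 and 3. Circles and triangles all lie below 0 on this scale, while the squares of miR-690 and miR-1224-5p lie above it in all 3 panels as measured, though these entries have dark probes on that array and lie below 0 at its detection limit.

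Leaving out 1 control array at a time moved the members accordingly. Without control replicate 1 the members' median change was -0.28, -0.48 and -0.30 for 2 Gy, 10 Gy and 5x2 Gy, and 0 members were called. Without control replicate 2 it was -1.36, -1.48 and -0.96, and limma called miR-1224-5p after 10 Gy (-2.02, adjusted p = 0.021), among 7 of 118 entries (5.93%). After 5x2 Gy it called miR-709 and miR-1224-5p (adjusted p = 0.020 and 0.024), among 15 (12.7%). Without control replicate 3 it called miR-720_v18.0 after 10 Gy and 5x2 Gy (adjusted p = 0.014 in both), among 3 (2.54%) and 16 (13.6%). The change of miR-690 after 5x2 Gy turned to 0.50 without control replicate 1 and to 0.28 without control replicate 3.

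The replicates also differed inside the irradiated groups. 2 Gy replicate 2, the brightest of its group (897), was above replicates 1 and 3 for miR-690, miR-1224-5p and miR-494-3p. 10 Gy replicate 3, the only array of its group on slide 2 and the brightest (867), was the highest for the same entries. The 5x2 Gy arrays, all on slide 2 and near each other in brightness, were the closest to each other for these entries too. Their SD was 0.11 for miR-690, 0.03 for miR-1224-5p and 0.03 for miR-494-3p.

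Among the 118 tested entries, the SD between replicates within groups was largest for miR-690 (0.97), next for miR-494-3p (0.83) and then for miR-1224-5p (0.74). MiR-188-5p ranked 9 (0.42), miR-709 27 (0.27) and miR-720_v18.0 42 (0.21). The value of miR-188-5p comes from the controls alone, since it sat at the floor on every irradiated array. Entries of this kind that are not members were among the 10 largest too, miR-689_v15.0 at rank 4 (0.71) and miR-714 at rank 10 (0.42). Thus 4 of the 10 largest belonged to the members, whose median SD was 0.58 against 0.14 over all tested and 0.18 over the 71 entries never at the floor. Dark probes on control replicate 2 enter these values of all members but miR-720_v18.0. Between the spots of a probe on 1 array, which share 1 sample, the median coefficient of variation was 3.57% to 14.7% over the 16 member probes. The 6 member probes detected on all arrays differed 1.89 to 8.63 times between their lowest and highest array on the scaled signal, the first and last being probes of miR-720_v18.0 and miR-494-3p.

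**Figure D4:**
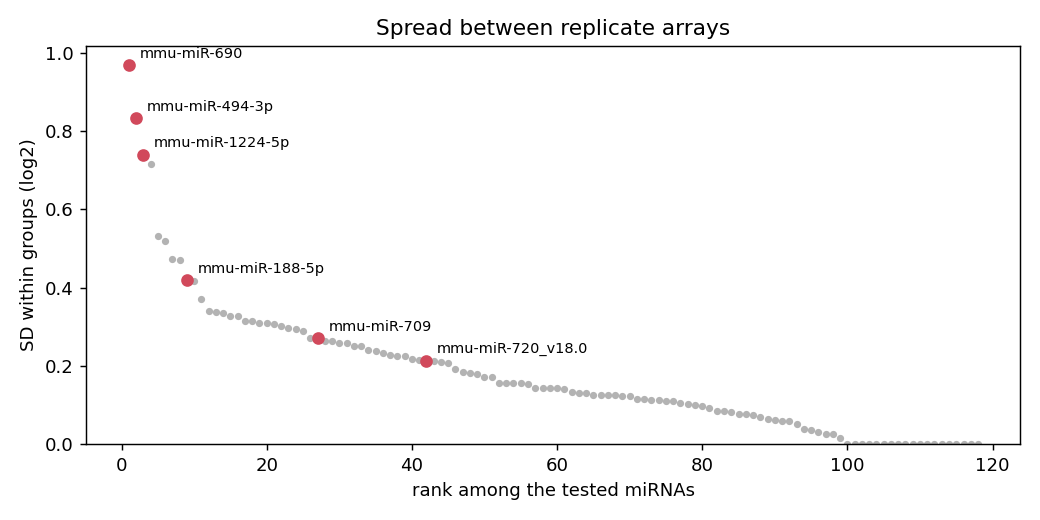
The SD of log2 levels within groups (vertical axis, pooled over 4 groups of 3 arrays) is plotted against its rank among the 118 tested entries. Red points are the 6 members, and 3 of them take ranks 1 to 3, between 0.74 and 0.97.

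Levels of miR-690, miR-1224-5p and miR-494-3p went together across the 12 arrays. Pearson's r was 0.85 between miR-690 and miR-1224-5p (Spearman's rho 0.93), 0.90 between miR-690 and miR-494-3p (rho 0.92) and 0.96 between miR-1224-5p and miR-494-3p (rho 0.92). Each had a permutation p of 1e-05, the smallest that 100000 resamples can give, and 5e-05 adjusted over the 15 relations computed. The permutation p of rho was 4e-05, 7e-05 and 5e-05, or 0.00035 adjusted in each. Without the 2 arrays farthest from the median of the first entry (control replicates 1 and 2 for miR-690, 1 and 3 for miR-1224-5p) r was 0.88, 0.91 and 0.96, and on the 8 arrays of slide 1 it was 0.94, 0.97 and 0.96 (exact permutation test, adjusted p = 0.0035, 0.0068 and 0.0019). The 4 arrays of slide 2, 3 of them of 1 group, are too few for a reported r. The sign there was positive for miR-690 with miR-494-3p and negative for the other 2 pairs. On slide 2 the levels of miR-1224-5p spanned only -1.38 to -1.27 and those of miR-494-3p only -1.49 to -1.28. The signs of these pairs, positive or negative, therefore cannot tell whether the relations hold there. All levels of an array share its scale, and the shuffles over 12 arrays crossed groups and slides. Dark probes enter the levels of all 3 entries, and the members were chosen with values of these arrays known. The p-values of these and the following correlations are therefore a description and do not establish a relation.

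MiR-709 followed them less firmly. Its r was 0.86 with miR-1224-5p (permutation p = 0.0052, adjusted 0.019; rho 0.58, p = 0.052, adjusted 0.13) and 0.73 with miR-494-3p (permutation p = 0.011, adjusted 0.033; rho 0.37, p = 0.24, adjusted 0.32). Without the 2 arrays farthest from its median these were 0.02 and -0.06, so the relations rest on those arrays. On slide 1 alone they were 0.88 and 0.76 (exact permutation test, adjusted p = 0.032 and 0.050), and with miR-690 miR-709 had an r of 0.56 (adjusted permutation p = 0.068). The r of miR-720_v18.0 with the other 4 entries was 0.36 to 0.69, with adjusted permutation p of 0.055 to 0.33. MiR-188-5p, at the floor on 10 arrays, was left out.

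Brightness itself, on the log2 scale, had an r of 0.63 with miR-690 (permutation p = 0.027, adjusted 0.055; rho 0.64, p = 0.030, adjusted 0.11), and 0.65 on slide 1 (exact permutation test, adjusted p = 0.13). It was 0.17 with miR-1224-5p, 0.26 with miR-494-3p, -0.13 with miR-709 and -0.42 with miR-720_v18.0, with adjusted permutation p of 0.24 to 0.68. The rho was 0.55 for miR-1224-5p and 0.58 for miR-494-3p (adjusted permutation p = 0.15 and 0.13), close to that of miR-690, and -0.098 and -0.15 for miR-709 and miR-720_v18.0 (0.76 and 0.68). The scale divides by brightness, so the quantities are not independent. With brightness as a covariate, limma called miR-690 (-1.71), miR-1224-5p (-1.71) and miR-494-3p (-2.11) after 10 Gy (adjusted p = 0.027, 0.038 and 0.025), among 26 of 118 entries (22%). It called the same 3 members after 5x2 Gy, at -1.84, -2.16 and -2.42 (adjusted p = 0.031, 0.034 and 0.025), among 28 entries (23.7%). Brightness did not overlap between 5x2 Gy and the other groups, so in that comparison the fit extends beyond the control arrays.

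Between the irradiated groups, 5x2 Gy minus 10 Gy compares equal summed doses given in 5 fractions or at once. Limma called 3 of 118 entries (2.54%) and 0 members, whose median change was 0.20 against 0.03 over all tested. MiR-690 was at 1.03 (SE 0.77, adjusted p = 0.61) and miR-494-3p at 0.59 (SE 0.66, adjusted p = 0.80), both higher without overlap, as were 25.4% of all tested entries, while 0.847% lay lower without overlap. MiR-1224-5p was at 0.26, miR-720_v18.0 at 0.13, miR-709 at -0.20 and miR-188-5p at 0, at the floor in both. The 95% interval ran from -0.26 to 0.52 for miR-720_v18.0 and from -0.73 to 2.79 for miR-690.

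Slide was confounded with dose in part. With slide as a block, the changes after 10 Gy, equal to those within slide 1, were -1.41 for miR-690, -1.49 for miR-1224-5p, -1.82 for miR-494-3p, -0.62 for miR-720_v18.0, -0.35 for miR-709 and -0.67 for miR-188-5p, with 0 called. In 5x2 Gy minus 10 Gy, miR-690 was then at 0.36 and miR-494-3p at 0.19, and miR-1224-5p turned to -0.085. All 2 Gy and control arrays lay on slide 1, so those values stand within 1 slide. All 5x2 Gy arrays lay on slide 2 and all controls on slide 1, so within a slide that comparison has no value, and with the block it rests on the 10 Gy arrays, which gave a members' median of -0.86. There miR-690 was at -1.05 (-0.05 without the block), miR-1224-5p at -1.58, miR-494-3p at -1.63, miR-709 at -0.57, miR-720_v18.0 at -0.49 and miR-188-5p at -0.67, with limma adjusted p of 0.59 to 0.80.

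Beyond the members, the entries whose levels went most like the members' mean were miR-689_v15.0 (r = 0.98), miR-202-3p (0.95) and miR-714 (0.93), over 12 arrays and 93 entries that were not at the floor throughout. MiR-689_v15.0 ran from -3.69 to -0.89 and was detected on 9 arrays. MiR-202-3p ran only from -4.06 to -3.11, was detected on 7 arrays and sat at the floor on 5. MiR-714, and miR-689 without its version suffix, are on the list of other entries of this kind. MiR-714 was at -2.48, -4.06 and -2.98 in control and at the floor on all irradiated arrays but 2 Gy replicate 2 (-3.71). It was detected on 7 arrays but at the floor on 9, so the floor hides detected signal, and its r rests on few arrays. Most opposed were miR-199a-3p (-0.93), miR-15b-5p (-0.90) and miR-10b-5p (-0.88). MiR-199a-3p is a mesenchymal marker and miR-15b-5p a member of the miR-15/16 family. All levels share each array's scale, which the members' own 6 everywhere-detected probes enter among 78.

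**Figure D5:**
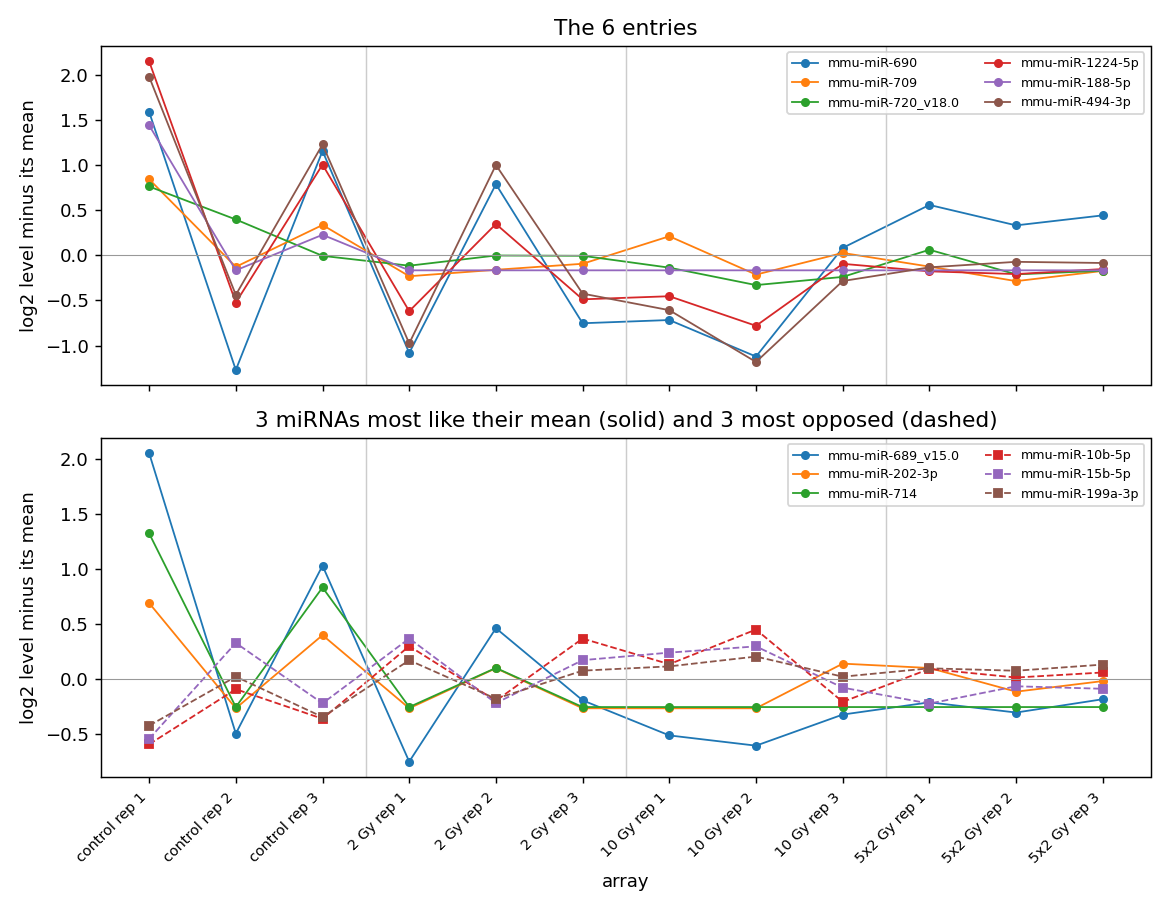
The log2 level minus its mean over the 12 arrays (vertical axis) is plotted by array for the 6 entries (top) and for the 3 entries most and least like their mean (bottom). Vertical lines separate the groups of 3 arrays. Control replicates 1 and 3 and 2 Gy replicate 2 are peaks of miR-690, miR-1224-5p, miR-494-3p and miR-689_v15.0, while miR-199a-3p and miR-15b-5p lie below their means there.

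G and C content went only weakly with that likeness. Over 81 tested entries that have a sequence and are not members, the r between percent G and C and the likeness was 0.32, and over the 58 never at the floor 0.37, given as a description. MiR-202-3p has 50% G and C, miR-10b-5p 43.5%, and miR-15b-5p and miR-199a-3p 40.9% each.

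Genomic neighbours of the members were almost all dark. Of the Clcn5 intron cluster around miR-188, 8 listed entries were on the array and 0 were tested. Of these only miR-500-3p was detected, on 5x2 Gy replicate 2. Of the Dlk1-Dio3 cluster around miR-494, 32 entries were on the array, 0 were tested and miR-376b-3p alone was detected, on 2 Gy replicate 2. The 1 entry for an opposite arm of a member's hairpin was detected on 0 arrays. MiR-494-3p itself was detected on all 12 arrays.

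Of the other listed entries of this kind, 13 of 50 names were on the array under the exact name, and 5 of these were detected on some array. Of them 3 were tested, miR-714, miR-574-5p and miR-712-5p, with 0 called in any comparison. The listed miR-689 is outside these counts, since the array names it miR-689_v15.0. It was tested and detected on 9 arrays. MiR-574-5p was measured highest on control replicate 2 (-2.72), against -3.57 and -3.90 on control replicates 1 and 3, but that level lies under the lowest detected level of the array, -1.91. It lay between -4.01 and -3.66 after 2 Gy and 10 Gy and at the floor on the 5x2 Gy arrays. MiR-712-5p was at the floor on all 12 arrays.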

How the data were processed

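The deposited scanner files hold spot intensity; the submitters' processing notes name Agilent Feature Extraction 10.7.3.1 as the scanner software, and the deposited spot flags, scored 0 or 1, served as filters. The deposited series table, on the log2 scale, was used as an alternative. Its values equal the log2 processed signal (signals below 1 raised to 1) plus 1 shift per array (-0.27 to 0.51) within 0.001. Column medians ran from -0.19 to 1.14, so scale, centring and direction are known. The headers name mm9 as the design's build.

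Control and outlier spots were dropped (0 were saturated) and spots averaged per probe. A probe counted as detected where more than 0.5 of its spots carried the well-above-background flag. The 75th percentile of the 78 probes detected on every array set an array's scale, and values were floored at 0.0598 and put on the log2 scale. A miRNA's level averaged its probes detected on at least 3 arrays, and it was tested (118 of 576) when detected on all 3 arrays of a group. Limma 3.58.1 in R 4.3.3 was fitted to all 12 arrays without covariates, with Benjamini-Hochberg adjustment over the 118 and a two-sided threshold of 0.05, and was tested on simulated data. Correlations used two-sided permutation tests in Python 3.11.15. Normexp used the median signal, since the files read hold no mean signal column. Sequences and positions are from RefSeq, and no pair of arrays held identical values. The members and lists were chosen with earlier results of these data known. Named beside the members were the 3 entries most and least like their mean centred level, and the tested entries of the lists. Alternatives covered scaling, background, floor, filter, probe choice, slide, pairing, brightness and each array left out. The number of arrays limits the precision.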

Additional observations from a re-analysis of the deposited data

How the results depend on the processing

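Over the settings other than leaving out an array, the 6 entries' 450 changes turned direction in 33 cases and became called in 13. Most turns came from settings that shift all entries of the bright 5x2 Gy arrays together. With the 75th percentile over all probes the median of all tested entries moved to 1.42 in 5x2 Gy minus control and 1.09 in 5x2 Gy minus 10 Gy, without scaling to 1.41 and 1.11, and with the authors' deposited log2 values to 1.68 and 1.17. Under these 3 settings the members' median in 5x2 Gy minus control was 0.74, 0.84 and 0.78, each below the shift, and in 5x2 Gy minus 10 Gy it was 1.29, 1.30 and 1.33. In 5x2 Gy minus control miR-690 turned to 1.11, 1.10 and 1.69, miR-709 to 0.87, 0.95 and 0.91, miR-720_v18.0 to 1.15, 1.34 and 0.96, miR-1224-5p to 0.37, 0.49 and 0.43, miR-494-3p to 0.62, 0.72 and 0.43, and, with the authors' values alone, miR-188-5p to 0.64. In 5x2 Gy minus 10 Gy miR-709 turned to 0.92, 0.91 and 0.75. Without scaling miR-720_v18.0 turned to 0.17 after 2 Gy and 0.028 after 10 Gy and miR-709 to 0.042 after 10 Gy, while the authors' values put miR-709 at 0.17 after 10 Gy.

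Smaller turns had other settings. Total gene signal, chosen after the data were seen, put miR-690 at 0.081 after 2 Gy and 0.73 after 5x2 Gy, and miR-720_v18.0 at -0.044 in 5x2 Gy minus 10 Gy. With the floor divided by 4 miR-690 was at 0.20 after 5x2 Gy. In 5x2 Gy minus 10 Gy, median scaling put miR-720_v18.0 at -0.00025, slide as a block and slide 2 alone put miR-1224-5p at -0.085, and brightness as a covariate put miR-690 at -0.13, miR-1224-5p at -0.45 and miR-494-3p at -0.31. The cause of these turns was not tested.

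Members were called in 0 of these settings after 2 Gy and in 5x2 Gy minus 10 Gy. After 10 Gy, 1 was called with normexp at an offset of 50 and 3 with brightness as a covariate. After 5x2 Gy, 1 was called with normexp at each offset (50 and 1), 2 with the brightest probe, 2 with total gene signal and 3 with brightness as a covariate, where the members' median was -1.37. The main fit called 12.7% of all tested entries after 5x2 Gy. The count over all entries with the brightest probe is not given there, so its 2 calls cannot be set against a share.

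Over all tested entries, the 0 calls after 2 Gy became 2 with quantile scaling (1 higher), 1 with normexp at offset 1, 1 with the brightest probe and 6 with brightness as a covariate (4 higher). The 1 call after 10 Gy became 4 with quantile scaling (3 higher), 2 with the brightest probe, 2 with normexp at offset 50 (0 higher), 2 with only the groups compared and 26 with brightness as a covariate (14 higher). It became 0 without scaling, with the authors' values, with slide as a block, within slide 1, with the replicate block and with a floor at the highest of the arrays' lowest levels, a setting also chosen after the data were seen. The 15 calls after 5x2 Gy became 102 with all probes, 86 without scaling and 84 with the authors' values, all higher. They became 7 with a scale without the members' probes (5 higher), 4 with median scaling (3 higher), 7 with quantile scaling (6 higher), 2 with normexp at an offset of 50 (0 higher) and 5 at an offset of 1 (1 higher). They became 7 with the floor doubled, 25 with it divided by 4 (22 higher), 2 with the highest floor, 1 with slide as a block and 28 with brightness as a covariate (21 higher), and total gene signal gave 10 (7 higher). The 3 calls in 5x2 Gy minus 10 Gy became 90 with all probes and 24 without scaling. They became 0 with normexp at either offset and with the authors' values, 9 within slide 2 (7 higher), and 1 each with median scaling, quantile scaling, the floor doubled, the highest floor and slide as a block.

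Leaving out 1 array at a time, with a pooled spread, gave 0 to 3 calls after 2 Gy, 0 to 7 after 10 Gy, 7 to 16 after 5x2 Gy and 1 to 3 in 5x2 Gy minus 10 Gy. The members called were 0, 0 to 1, 0 to 2 and 0. The members' median ran from -1.36 to -0.28, from -1.48 to -0.48, from -0.96 to -0.30 and from 0.09 to 0.28. The change of miR-690 after 5x2 Gy ran from -0.93 to 0.50 and turned in 3 of 12 such fits.

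Replicate numbers recur across groups, with no word in the labels on whether they pair the arrays. Deviations of arrays with the same number correlated from -0.88 to 0.73, over 0.1 in 6 of 18 pairs. With 3 arrays a group these values cannot settle whether the arrays are paired. With the replicate block, 0 entries were called after 2 Gy, 0 after 10 Gy, 10 after 5x2 Gy and 2 in 5x2 Gy minus 10 Gy, with 0 members among them. With 3 arrays a group and a floor reached by miR-188-5p on 10 arrays, signal over background limits what can be told of that entry.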
